A study of Mus musculus with 9 samples.

Results

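The genes described here are 6 matrix metalloproteinases (Mmp8, Mmp9, Mmp12, Mmp14, Mmp19 and Mmp25), 2 tissue inhibitors of metalloproteinases (Timp1 and Timp2) and the related surface protease Adam8. They are 9 of the 38926 gene symbols counted in each of 9 RNA-seq libraries from a murine acute myeloid leukaemia. The 9 were chosen by symbol, with earlier results from these same libraries known, and the measured values that guided the choice are not recorded. Folds, standard errors and adjusted p-values of these genes therefore describe the libraries, and counts over them are no evidence about the family as a group. Of the 9, 8 passed the filter on low counts, and Timp1 did not.

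All groups were cultures of MLL-AF9 leukaemia cells, in which the methyltransferase MLL is fused to AF9. The labels call the cells both a murine cell line and tertiary transplanted. The 3 groups carried a control hairpin, shRNA-1 against Syncrip or shRNA-2 against Syncrip, with 3 libraries each, taken at day 4 after transduction. Syncrip encodes an RNA-binding protein. The control is a scrambled hairpin in the sample labels and a luciferase hairpin in the series' design text. Each culture was transduced on its own, and no label ties them to separate mice or leukaemias, so p-values measure the spread between cultures.

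Matrix metalloproteinases are zinc proteases that cut collagens, elastin, gelatin and many other proteins outside the cell. They are made as inactive precursors, and TIMP proteins block the active enzymes by binding to their catalytic site. ADAM proteins are a sister family that mostly sheds the outer parts of membrane proteins. Neutrophils store Mmp8 and Mmp9 in granules, and macrophages secrete Mmp12.

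Total counts per library ran from 9559638 to 19483923. Syncrip, the targeted gene, was at 207 to 241 CPM (counts per 1000000 of the TMM-scaled library size) in the controls, 15.9 to 20.1 with shRNA-1 and 46.3 to 63.1 with shRNA-2, lower in both knockdown groups. Ribosomal RNA (Gm26924, mt-Rnr1 and mt-Rnr2) took 4.77% to 8.29% of counts in the controls, 11.98% to 19.3% with shRNA-1 and 6.10% to 15.8% with shRNA-2. Lineage markers moved with the hairpins too. The summed level of 15 monocyte and macrophage markers was 501 to 723 CPM in control libraries, 925 to 2121 with shRNA-1 and 1875 to 3735 with shRNA-2. Lyz2 made up most of that sum, at means of 402, 1292 and 1727 CPM. Of the 13 that passed the filter, 4 rose under shRNA-1 and 12 under shRNA-2, against 17.4% and 24.4% of all genes tested. The 12 include C1qa, which passed the filter only with its shRNA-2 libraries. The summed level of 14 neutrophil markers was 12616 to 13012, 29495 to 38052 and 35943 to 50535 CPM in the same order. S100a8 (means of 5602, 17755 and 21537 CPM) and S100a9 (4823, 10966 and 13867) made up most of it. Of the 13 neutrophil markers that passed the filter, 10 rose and 1 fell with shRNA-1, and 10 rose and 3 fell with shRNA-2. Over all genes tested, 17.4% rose and 17.3% fell with shRNA-1, and 24.4% rose and 24.2% fell with shRNA-2. The granule protein Ltf rose by 1.52 with shRNA-1 and fell by 1.15 with shRNA-2 on the log2 scale, Csf3r, the G-CSF receptor, fell by 1.11 and 1.16, and Cd177 fell by 0.71 with shRNA-2 (highest edgeR adjusted p = 0.0288). Ly6g, a surface marker of mature neutrophils, was at a mean of 0, 0.031 and 0.102 CPM. In bulk RNA, more cells of a type and more RNA per cell cannot be told apart. The part of these 2 marker lists in the values below was not tested.

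A gene is said to rise or fall where its adjusted p was under 0.05 in edgeR's quasi-likelihood test, with Benjamini-Hochberg adjustment over all genes tested. Of the 8 genes that passed the filter, 5 rose and 0 fell with shRNA-1, and 8 rose and 0 fell with shRNA-2. The share of all 12663 genes tested that rose was 17.4% with shRNA-1 and 24.4% with shRNA-2, and the share that fell was 17.3% and 24.2%. Mmp8, Mmp9, Mmp12, Mmp25 and Adam8 rose with both hairpins, a pattern that 9.24% of the genes tested showed, while 9.57% were lower with both. The median log2 fold change of the 8 was 0.94 with shRNA-1 and 1.79 with shRNA-2, against 0.023 and 0.0042 over all genes tested. At an unadjusted p under 0.05, 1 of the 8 was lower with shRNA-1 (Timp2) and 0 with shRNA-2, and DESeq2 called 0 lower with either hairpin. Both comparisons share the control libraries. Scaling to total counts without TMM factors moved the median over all genes to -0.23 (shRNA-1) and -0.21 (shRNA-2). Of the 8, 4 then rose and 1 fell (Timp2) with shRNA-1, and 5 rose and 0 fell with shRNA-2. Genes that rose made up 23.8% of calls with shRNA-1 and 33.6% with shRNA-2 under that scaling, against 50.1% and 50.2%. When the share of ribosomal RNA was added to the fit as a covariate, 2 of the 8 rose with shRNA-1 (Mmp9 and Mmp25) and 8 with shRNA-2. That share did not overlap between control (4.77% to 8.29%) and shRNA-1 libraries (11.98% to 19.3%). In that comparison the covariate and the hairpin therefore cannot be told apart, and a call lost under the covariate assigns the change to neither.

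**Figure D1:**
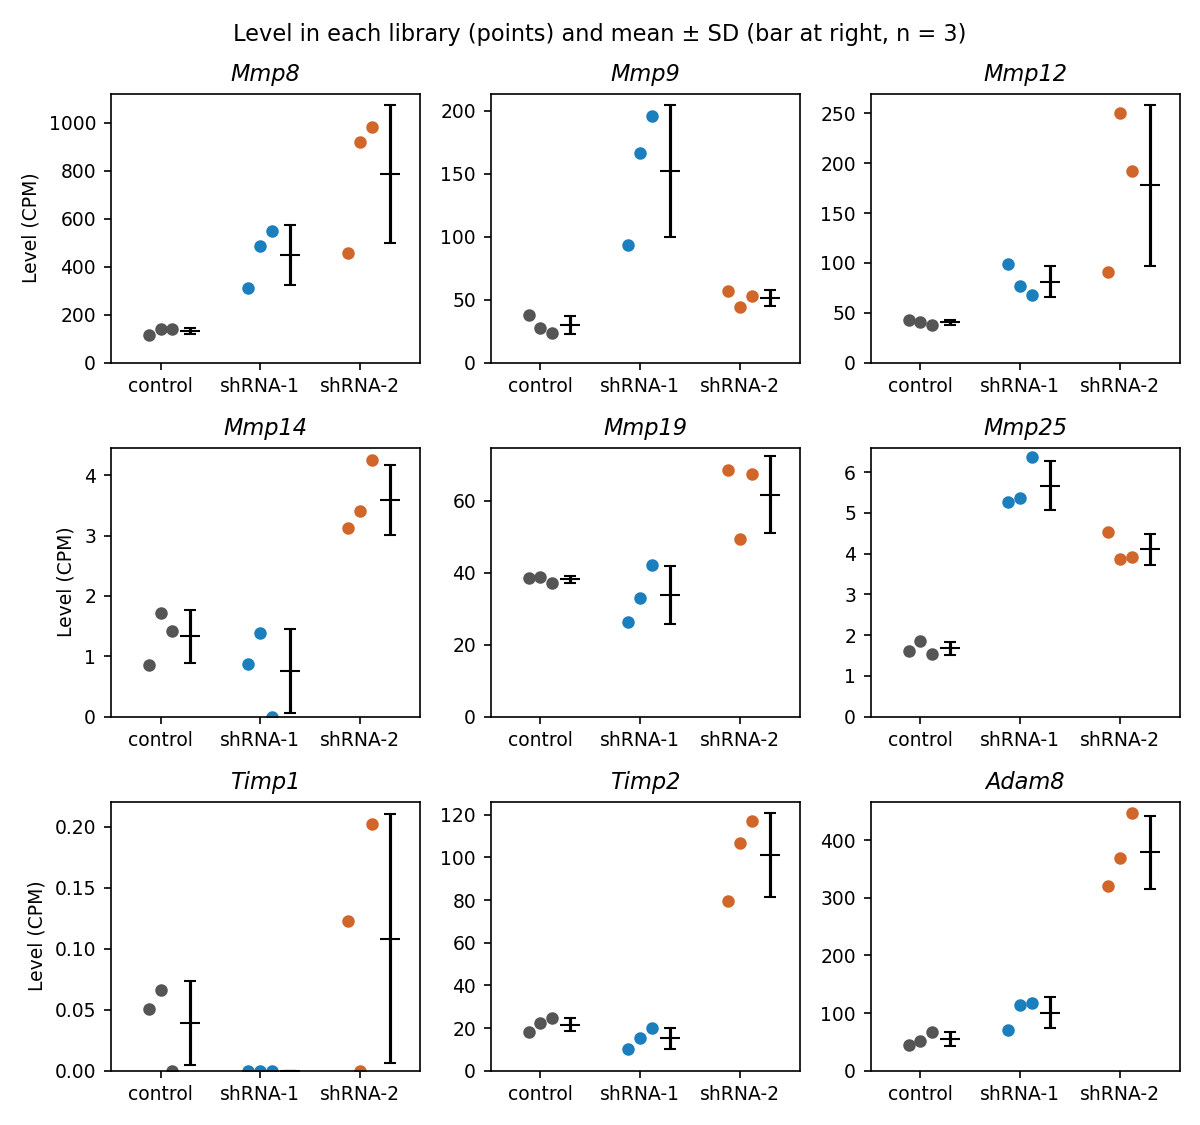
Level of each of the 9 genes in CPM (y axis, linear from 0, own scale per gene) in the control, shRNA-1 and shRNA-2 groups, with 1 point per library and the mean ± SD of 3 libraries at the right of each group. Timp1 stayed at or under 0.202 CPM in every library.

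Mmp8, the collagenase of neutrophils, rose with both hairpins. Its level was 117, 141 and 141 CPM in control libraries, 311, 488 and 549 with shRNA-1 and 455, 921 and 981 with shRNA-2. Both knockdown groups lay wholly above the controls, and the lowest shRNA-2 library, replicate 1, fell among the shRNA-1 libraries. The log2 fold change was 1.76 ± 0.28 (SE) with shRNA-1 and 2.56 ± 0.28 with shRNA-2 (edgeR adjusted p = 0.000921 and 2.87e-05). Adding the ribosomal RNA covariate ended the call for shRNA-1, at 1.22 (edgeR adjusted p = 0.0562). Between the hairpins the level was lower with shRNA-1 by 0.81 ± 0.27 on the log2 scale (edgeR adjusted p = 0.0318), a call lost on leaving out replicate 1 or 2 of shRNA-1, or replicate 2 or 3 of shRNA-2 (highest edgeR adjusted p = 0.128). Over all 9 omissions of 1 library that difference ran from -1.09 to -0.60.

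Mmp12, the elastase of macrophages, also rose with both hairpins and more with shRNA-2. Its level was 42.7, 40.5 and 37.9 CPM in control libraries, 98.7, 77.3 and 67.9 with shRNA-1 and 90.9, 251 and 192 with shRNA-2. Here too shRNA-2 replicate 1 lay among the shRNA-1 libraries, apart from its 2 partners. That library also had the lowest monocyte and macrophage marker sum of its group, 1875 CPM against 3608 and 3735. Its neutrophil marker sum (35943 CPM against 50535 and 37619) and its ribosomal RNA share (6.10% against 15.8% and 10.4%) were the lowest of the group too. Log2 fold changes were 1.01 ± 0.28 with shRNA-1 and 2.14 ± 0.29 with shRNA-2 (edgeR adjusted p = 0.0177 and 0.000114), and shRNA-1 minus shRNA-2 came to -1.13 ± 0.28 (0.00751 in that test). The shRNA-1 call was lost on leaving out replicate 1 of shRNA-1, or replicate 2 or 3 of the controls (highest edgeR adjusted p = 0.0632), with values of 0.84 to 1.12 over all 9 omissions. Its value was 0.27 under the ribosomal RNA covariate (edgeR adjusted p = 0.621).

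Mmp8 and Mmp12 lie in a cluster of 10 Mmp genes that spans 427.1 kb of chromosome 9 (7272514 to 7699585 on mm10, GENCODE M21). Mmp12 lies at 7344381 to 7369499 and Mmp8 at 7558456 to 7568485, both on the plus strand. Of the others in the cluster, Mmp13, a collagenase, had 360 counts over all 9 libraries, Mmp27 had 18, Mmp10 had 1, and Mmp1a, Mmp1b, Mmp3, Mmp7 and Mmp20 had 0. The 4 genes between Mmp12 and Mmp8 (Mmp1b, Mmp3, Mmp1a and Mmp10) thus had 1 count in all. Mmp12 overlaps Mmp1b, which lies on the opposite strand.

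The promoters of the pair that rose together are shown because the 2 genes sit in the same cluster. Each line gives the 250 bases before a RefSeq start (GRCm38.p6, 5′ to 3′ on the gene's strand). Capitals mark matches on either strand to 4 short motifs: TGANTCA of AP-1, AGGAAGT of ETS factors, TTGCNNAA of C/EBP factors and TATAAA. Mmp12 has 2 RefSeq starts.
Mmp8, chr9:7558179-7558428, plus strand: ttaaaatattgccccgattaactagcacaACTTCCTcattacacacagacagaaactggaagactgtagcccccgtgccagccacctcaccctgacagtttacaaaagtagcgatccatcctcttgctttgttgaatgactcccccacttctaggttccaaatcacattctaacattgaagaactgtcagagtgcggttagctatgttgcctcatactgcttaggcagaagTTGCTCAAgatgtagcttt
Mmp12 first start, chr9:7344147-7344396, plus strand: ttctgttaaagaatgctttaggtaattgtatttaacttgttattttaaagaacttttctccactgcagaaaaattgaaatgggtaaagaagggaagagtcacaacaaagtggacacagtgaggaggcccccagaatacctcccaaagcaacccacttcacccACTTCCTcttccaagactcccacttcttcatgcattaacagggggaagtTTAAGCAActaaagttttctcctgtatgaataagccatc
Mmp12 second start, chr9:7347124-7347373, plus strand: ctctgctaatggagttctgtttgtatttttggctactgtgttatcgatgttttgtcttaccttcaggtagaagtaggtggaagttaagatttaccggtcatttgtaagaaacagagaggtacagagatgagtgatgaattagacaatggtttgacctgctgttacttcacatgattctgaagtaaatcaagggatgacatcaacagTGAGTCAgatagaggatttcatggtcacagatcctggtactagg
The Mmp8 promoter held an ETS match starting 221 bases and a C/EBP match starting 19 bases before the start. The first Mmp12 promoter held the same 2 kinds, at 88 and 39 bases, and the second held an AP-1 match at 44 bases. Over 32851 promoters of this length, 7.69% held the ETS letters, 9.56% the C/EBP letters, 6.75% the AP-1 letters and 12.4% the TATA letters. No 2 of the marked matches overlap. A match describes letters and is not a measured binding site. RefSeq promoters were matched for 7 of the 9 genes. The windows of Mmp14 and Mmp25, which are not printed, held no match to the 4 motifs. That of Timp1, also not printed, held 1 match, of ETS, starting 175 bases before the start.

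Mmp9, the gelatinase of neutrophil granules (chromosome 2, 164940780 to 164955850 on mm10), had the largest log2 fold change of the 8 genes with shRNA-1. Its level was 37.6, 27.8 and 23.5 CPM in control libraries, 93.7, 167 and 196 with shRNA-1 and 56.6, 44.6 and 53.0 with shRNA-2. The 3 groups did not overlap, in the order control, shRNA-2, shRNA-1. Relative to the controls, Mmp9 rose by 2.36 ± 0.25 on the log2 scale with shRNA-1 and by 0.79 ± 0.25 with shRNA-2 (edgeR adjusted p = 0.000122 and 0.0191). The level with shRNA-1 minus that with shRNA-2 was 1.56 ± 0.25 on the log2 scale (edgeR adjusted p = 0.000437), and Mmp9 was the 1 gene of the 8 called higher with shRNA-1 than with shRNA-2. The shRNA-2 call was lost on leaving out replicate 2 or 3 of the controls (highest edgeR adjusted p = 0.0760), with values of 0.67 to 1.02 over all 9 omissions, and with total-count scaling, at 0.59 (0.0662).

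Mmp19, a metalloproteinase of many tissues that cuts basement membrane proteins (chromosome 10, 128790910 to 128800824), rose with shRNA-2. Its level was 38.7, 38.8 and 37.1 CPM in control libraries, 26.3, 33.0 and 42.2 with shRNA-1 and 68.5, 49.3 and 67.4 with shRNA-2. The shRNA-1 libraries spread on both sides of the controls, and the shRNA-2 libraries lay above both. Its log2 fold change was 0.69 ± 0.17 with shRNA-2 (edgeR adjusted p = 0.00606) and -0.17 ± 0.18 with shRNA-1 (0.477), with a 95% interval of -0.56 to 0.21. With total-count scaling the shRNA-2 call was lost, at 0.49 (edgeR adjusted p = 0.0533). The gene overlaps Tmem198b on the opposite strand, which had 524 counts against 6074 for Mmp19 over all libraries.

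The membrane-bound enzymes of the Mmp genes described, Mmp14 and Mmp25, had few counts. Mmp14 (chromosome 14, 54431612 to 54445364), the membrane-type protease that activates pro-MMP2, had 17, 26 and 32 counts in the controls, 8, 18 and 0 with shRNA-1 and 51, 44 and 63 with shRNA-2. That is 0.861 to 1.72, 0 to 1.38 and 3.13 to 4.25 CPM. The shRNA-2 libraries lay above all others, and the shRNA-1 libraries overlapped the controls. Against the controls the log2 fold change was 1.44 ± 0.50 with shRNA-2 (edgeR adjusted p = 0.0313) and -0.76 ± 0.61 with shRNA-1 (0.359), with a 95% interval of -2.10 to 0.57. That rise was no longer called on leaving out replicate 2 or 3 of shRNA-2, or replicate 1 or 3 of the controls (highest edgeR adjusted p = 0.105), or with total-count scaling (0.0704). The value stayed between 1.22 and 1.65 in all of these fits. On the log2 scale shRNA-1 minus shRNA-2 was -2.20 ± 0.57 (edgeR adjusted p = 0.00940), and -3.11 without shRNA-1 replicate 2.

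Mmp25, which neutrophils carry on the outer membrane by a lipid anchor (chromosome 17, 23628311 to 23645277), rose with both hairpins. Its level was 1.62, 1.85 and 1.55 CPM in control libraries, 5.27, 5.37 and 6.36 with shRNA-1 and 4.54, 3.86 and 3.91 with shRNA-2, from 28 to 74 counts per library. The groups did not overlap, and shRNA-1 was the highest. It rose by 1.76 ± 0.21 on the log2 scale with shRNA-1 and by 1.30 ± 0.21 with shRNA-2 (edgeR adjusted p = 0.000211 and 0.000374). Between the hairpins the log2 difference was 0.46 ± 0.20, with shRNA-1 the higher (edgeR adjusted p = 0.0815), with a 95% interval of 0.031 to 0.90.

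**Figure D2:**
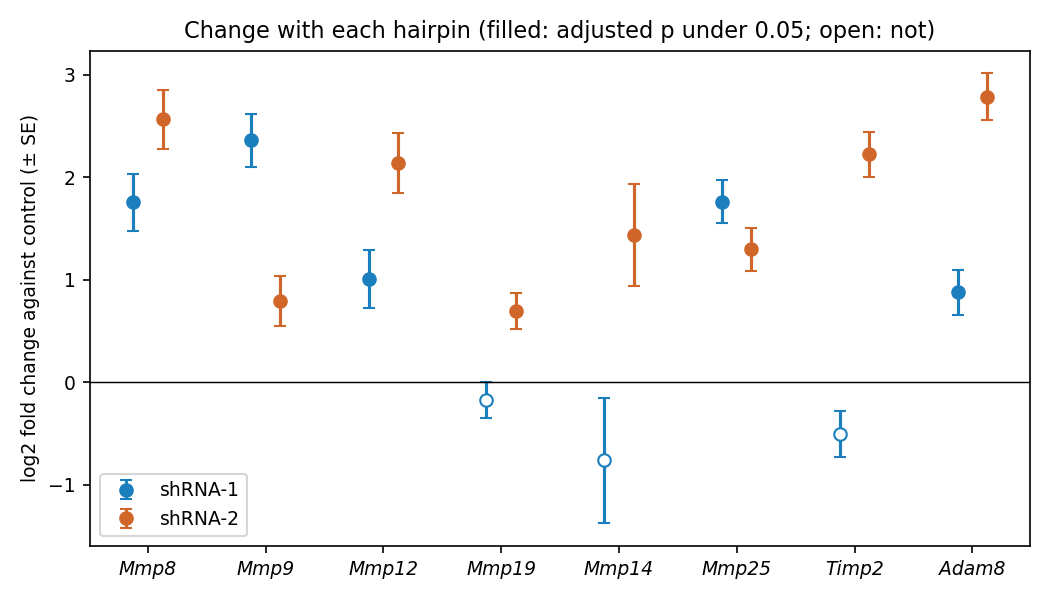
Log2 fold change against control (y axis, ± SE of the fit to 9 libraries) of the 8 genes that passed the filter, with shRNA-1 in blue and shRNA-2 in orange; filled points had an edgeR adjusted p under 0.05 over all genes. Mmp19, Mmp14 and Timp2 stood below 0 with shRNA-1, at -0.17, -0.76 and -0.51, and all 8 points of shRNA-2 lay above 0.

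The inhibitors were Timp2 in practice, since Timp1 was hardly detected. Timp2 (chromosome 11, 118301069 to 118355740), which blocks metalloproteinases and with MMP14 also helps to activate pro-MMP2, was at 18.2, 22.1 and 24.5 CPM in control libraries, 10.3, 15.1 and 20.0 with shRNA-1 and 79.4, 107 and 117 with shRNA-2. The shRNA-2 libraries lay far above the others, while the shRNA-1 libraries reached into the range of the controls. Timp2 rose by 2.23 ± 0.22 with shRNA-2 (edgeR adjusted p = 1.30e-05). With shRNA-1 it stood at -0.51 ± 0.22 (edgeR adjusted p = 0.0997), with a 95% interval of -0.996 to -0.019. It passed as lower without shRNA-1 replicate 3 (edgeR adjusted p = 0.0331) and without the filter on low counts (0.0118). The same held with total-count scaling (0.0188) and with the replicate number as a block (0.00761). The value for shRNA-1 minus shRNA-2 was -2.73 ± 0.23 (edgeR adjusted p = 6.06e-06), which in size was the largest such difference among the 8 genes.

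Timp1 (chromosome X, 20870166 to 20874735), the inhibitor that binds MMP9, had 1, 1 and 0 counts in the controls, 0, 0 and 0 with shRNA-1 and 2, 0 and 3 with shRNA-2. No library passed 3 counts, the number that a count of 0 still allows, which is 0.133 to 0.329 CPM depending on the library. No fold is given for it. Syn1 overlaps Timp1 on the opposite strand and had 104 counts over the 9 libraries. Whether the counting used strand is not given.

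Adam8, a protease of myeloid cells that sheds adhesion proteins from the cell surface (chromosome 7, 139978932 to 139992562), rose with both hairpins and far more with shRNA-2. Its level was 44.6, 52.0 and 67.9 CPM in control libraries, 70.0, 114 and 118 with shRNA-1 and 320, 370 and 447 with shRNA-2. The 3 groups did not overlap, although the lowest shRNA-1 library was close to the highest control. The log2 fold change was 0.88 ± 0.22 with shRNA-1 and 2.79 ± 0.23 with shRNA-2 (edgeR adjusted p = 0.00921 and 3.68e-06). The shRNA-1 call was lost with total-count scaling, at 0.62 (edgeR adjusted p = 0.0527), and with the ribosomal RNA covariate, at 0.93 (0.0959). Its level with shRNA-1 minus that with shRNA-2 was -1.91 ± 0.22 on the log2 scale (edgeR adjusted p = 5.09e-05). Gm16201, which overlaps Adam8 on the opposite strand, had 338 counts against 23242.

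Timp2 and Adam8 had 2 of the 3 largest differences between the hairpins, and their promoters are shown for comparison with those of the chromosome 9 pair, in the same form and with the same 4 motifs in capitals.
Adam8, chr7:139992563-139992812, minus strand: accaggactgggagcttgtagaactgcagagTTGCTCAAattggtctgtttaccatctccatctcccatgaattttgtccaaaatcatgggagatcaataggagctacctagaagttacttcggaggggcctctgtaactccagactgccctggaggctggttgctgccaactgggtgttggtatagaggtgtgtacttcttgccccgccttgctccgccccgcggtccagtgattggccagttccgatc
Timp2, chr11:118355412-118355661, minus strand: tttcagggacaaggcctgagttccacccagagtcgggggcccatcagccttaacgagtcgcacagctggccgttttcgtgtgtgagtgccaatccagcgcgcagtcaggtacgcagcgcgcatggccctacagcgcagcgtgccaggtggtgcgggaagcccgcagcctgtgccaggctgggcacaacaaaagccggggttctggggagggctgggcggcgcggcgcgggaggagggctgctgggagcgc
The Adam8 promoter held a C/EBP match starting 219 bases before the start, with the letters also found in the Mmp8 promoter (TTGCTCAA). The Timp2 window held no match to the 4 motifs. It was 68% G and C, against a median of 52.4% over all promoters of this length.

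Between the hairpins, 1 of the 8 genes was higher with shRNA-1 (Mmp9) and 6 were lower (Mmp8, Mmp12, Mmp14, Mmp19, Timp2 and Adam8). The share of all genes was 19.7% higher and 21.3% lower. Per kilobase of the longest annotated transcript, Mmp8 had the highest level of the 9 genes in the controls, 54.8 ± 5.61 CPM per kb (SD, n = 3). Adam8 followed at 14.9 ± 3.25, Mmp19 at 11.2 ± 0.281, Mmp9 at 9.34 ± 2.28, Mmp12 at 9.03 ± 0.537 and Timp2 at 5.83 ± 0.849 CPM per kb. Mmp9 differed from its neighbours Mmp19 and Mmp12 by less than its SD. Mmp14, Mmp25 and Timp1 were at 0.411, 0.370 and 0.044 CPM per kb, the first pair within 1 SD of each other. With shRNA-1 the highest levels were those of Mmp8 (185 ± 50.9), Mmp9 (47.9 ± 16.6) and Adam8 (27.5 ± 7.27 CPM per kb). With shRNA-2 they were those of Mmp8 (324 ± 119), Adam8 (103 ± 17.4) and Mmp12 (39.8 ± 18.1 CPM per kb). The libraries were primed from the poly(A) tail, so length does not scale counts evenly and the order is approximate.

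Genes with the most similar profile over the 9 libraries were found by the root mean square difference of centred log2 levels among 8675 genes of at least 5 CPM. Adam8 was closest to Lsp1, an actin-binding protein of leukocytes (0.12), and Ifitm3, an antiviral membrane protein (0.18). Mmp8 was closest to Msr1, a scavenger receptor of macrophages (0.14), and to March1 (0.18). Mmp19 was closest to Rhobtb1 (0.12) and to Ifih1, a sensor of viral RNA (0.13), Mmp25 to Rab8b (0.16) and Tfec (0.17), and Timp2 to the thromboxane synthase Tbxas1 (0.18). The nearest genes of the rest were less close, with Mctp1 (0.25) and Tmem65 (0.29) for Mmp12, Slc7a11 (0.34) and the granule peptide Camp (0.38) for Mmp9, and Prelid2 (0.36) and Cdkn1c (0.44) for Mmp14. The members' own root mean square spread ran from 0.42 (Mmp19) to 1.21 (Timp2), and all values share the 9 libraries and their depths.

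Few other genes of the family were detected. Of 17 other Mmp genes, 2 passed the filter, 6 had 0 counts in every library and the other 9 had 1 to 32 counts over all 9. Mmp2, a gelatinase that stromal cells secrete in quantity, had 1, 0 and 4 counts in the controls, 0, 3 and 3 with shRNA-1 and 72, 124 and 165 with shRNA-2. It rose with shRNA-2 (log2 fold change 6.47 ± 0.61, 7.81 without control replicate 3, edgeR adjusted p = 9.73e-06), a size that rests on 5 control counts. Mmp2 passed the filter on low counts only through its shRNA-2 libraries, so this p-value is no support for the rise. Mmp13 stood at -0.27 ± 0.51 and 0.78 ± 0.46 with shRNA-1 and shRNA-2 (edgeR adjusted p = 0.712 and 0.183). The shRNA-2 value of Mmp13 passed without shRNA-2 replicate 1 (edgeR adjusted p = 0.0278) and without the filter on low counts (0.0467). None of 3 other inhibitors passed the filter, with 7 counts of Timp3, 0 of Timp4 and 43 of the membrane-anchored Reck over all libraries.

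**Figure D3:**
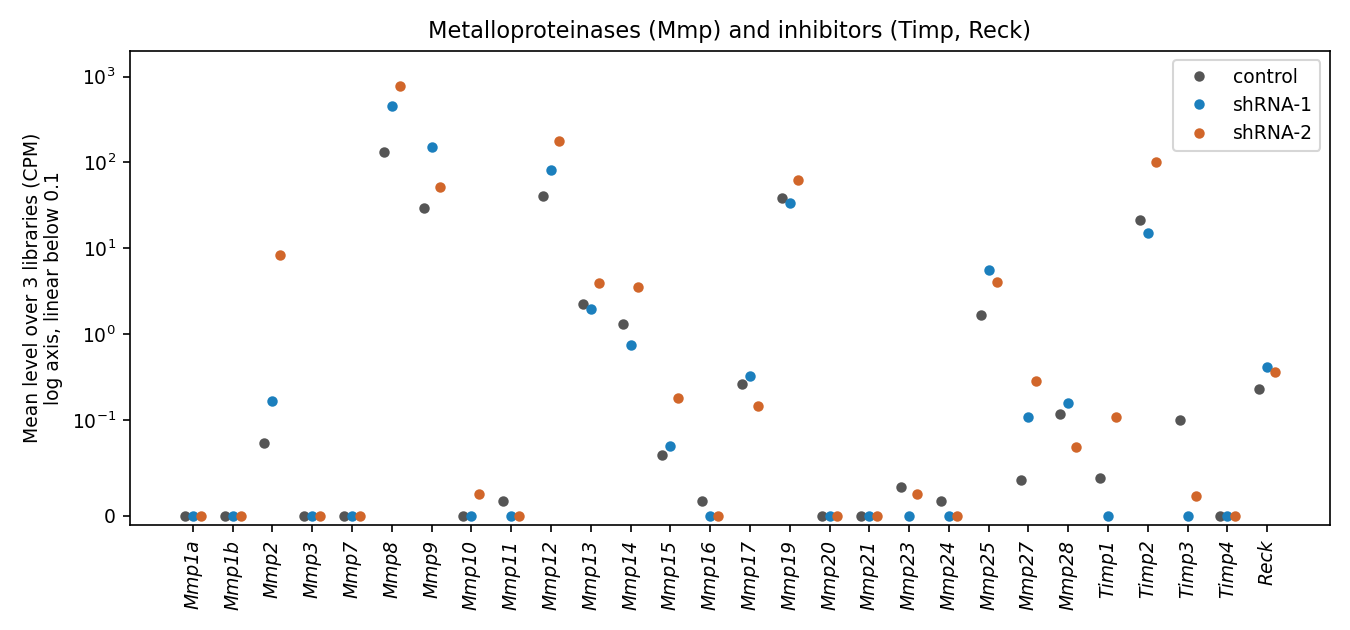
Mean level over 3 libraries in CPM (y axis, log scale, linear below 0.1) of 23 Mmp genes, 4 Timp genes and Reck, with 1 point per group in grey for control, blue for shRNA-1 and orange for shRNA-2. Mmp8 was the highest at 133, 449 and 786 CPM, Mmp2 reached 8.37 CPM with shRNA-2 alone, and many members were at 0.

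Markers of stromal cells, another source of Mmp2, Mmp14 and Timp2, were low. Of 13 fibroblast and stromal markers, 6 had 0 counts in every library (Col3a1, Col6a1, Dcn, Lum, Pdgfra and Loxl1). Their summed level was 4.51 to 6.49 CPM in control libraries, 2.84 to 3.40 with shRNA-1 and 17.5 to 27.5 with shRNA-2. Of the shRNA-2 sum, the collagen gene Col5a1 made up 19.6 ± 4.54 CPM (SD, n = 3). Of the 4 that passed the filter, 0 rose and 1 fell with shRNA-1, and 2 rose and 1 fell with shRNA-2. Of all genes tested, 17.4% rose and 17.3% fell with shRNA-1, and 24.4% rose and 24.2% fell with shRNA-2. The 2 were Col5a1 and Col1a1, and Col1a1 passed the filter only through its shRNA-2 libraries. Pdgfrb fell with both hairpins, at log2 fold changes of -1.82 and -2.22 (edgeR adjusted p = 0.00228 and 0.000273). Of 8 endothelial markers the summed level was 17.3 to 29.9, 5.27 to 8.52 and 20.8 to 23.5 CPM in control, shRNA-1 and shRNA-2 libraries. Tek was at 0 in every library, and Pecam1, which myeloid cells also express, made up most of the sum. Of 12 T, B and NK cell markers the sum was 14.0 to 17.9, 11.1 to 14.5 and 11.8 to 15.4 CPM, and 7 erythroid markers summed to at most 1.11 CPM. The part of stromal and endothelial RNA in the values of Mmp2, Mmp14 and Timp2 was not tested.

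Lists of other ADAM proteases, of partners and of substrates were drawn up from general knowledge. They share genes with the marker lists above and are not independent of them. Lcn2 and Itgam, listed as partners, are also neutrophil markers. Of the substrates, Csf1r is also a monocyte and macrophage marker, and Col1a1, Col1a2 and Col3a1 are also stromal markers. Of 30 other ADAM and ADAMTS genes, 6 passed the filter, and of these 0 rose and 1 fell with shRNA-1 and 4 rose and 0 fell with shRNA-2. At an unadjusted p under 0.05, 1 was higher with shRNA-1 and 0 were lower with shRNA-2, and DESeq2 called 0 in both cases. Their median log2 fold changes were -0.11 and 0.70, against 0.023 and 0.0042 over all genes tested, of which 17.4% rose and 17.3% fell with shRNA-1. With shRNA-2, 24.4% of all genes tested rose and 24.2% fell. Adam15 was at 126 ± 16.2, 119 ± 14.8 and 236 ± 6.19 CPM (control, shRNA-1, shRNA-2), and rose with shRNA-2 (edgeR adjusted p = 0.000192). Adam10, the sheddase that cuts Notch, was at 119.9 ± 8.01, 108 ± 9.60 and 174 ± 23.6 CPM and rose with shRNA-2 (edgeR adjusted p = 0.00479; 0.0632 with total-count scaling). Adam17, which releases TNF, went from 163 ± 2.05 to 104 ± 2.94 CPM with shRNA-1, a fall (edgeR adjusted p = 0.0281). Leaving out any 1 of the 6 libraries of that comparison ended the call (highest edgeR adjusted p = 0.0865), with log2 fold changes of -0.67 to -0.63 against -0.64 with all libraries. The ribosomal RNA covariate ended it too, at -0.14 (edgeR adjusted p = 0.721). With shRNA-2 Adam17 was at 122 ± 45.4 CPM (edgeR adjusted p = 0.109), and it passed as lower without shRNA-2 replicate 1 (0.000356), without the filter on low counts (0.0323) and with the replicate number as a block (0.0414). The ADAM genes that rose with shRNA-1 numbered 1 on leaving out replicate 1 of either hairpin group, without the filter on low counts and under the covariate.

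Of 20 genes that activate, anchor or clear metalloproteinases, 13 passed the filter, of which 5 rose and 1 fell with shRNA-1 and 9 rose and 0 fell with shRNA-2, where 0 were lower by DESeq2 or at an unadjusted p under 0.05. Their medians were 0.38 and 0.68, against 0.023 and 0.0042 over all genes tested. The shares of all genes tested that rose and fell were 17.4% and 17.3% with shRNA-1, and 24.4% and 24.2% with shRNA-2. Those that rose with both were Lcn2, Cd44 and Cd63. Lcn2, a granule protein that binds MMP9, was at 186 ± 48.3 CPM in control libraries, 529.5 ± 111 with shRNA-1 and 532 ± 83.2 with shRNA-2 (SD, n = 3), a log2 fold change of 1.51 with each (edgeR adjusted p = 0.000484 and 0.000130). Cd44, a hyaluronan receptor that holds MMP9 at the cell surface, rose by 0.73 ± 0.14 and 0.66 ± 0.14 (edgeR adjusted p = 0.00223 and 0.00189). Cd63, a tetraspanin that binds TIMP1, rose by 0.61 ± 0.18 and 0.69 ± 0.18 (edgeR adjusted p = 0.0201 and 0.00664). The shRNA-1 call of Cd63 was lost on leaving out replicate 1 or 3 of shRNA-1, or replicate 2 or 3 of the controls (highest edgeR adjusted p = 0.0793), with values of 0.53 to 0.69 over all 9 omissions. It was also lost with total-count scaling, at 0.36 (edgeR adjusted p = 0.0856), and under the ribosomal RNA covariate, at 0.34 (0.365). The covariate also ended the shRNA-1 call of Cd44, at 0.58 (edgeR adjusted p = 0.0747), and left 3 rises with shRNA-1 in this list.

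Of 21 matrix proteins and shed substrates, 14 passed the filter, of which 5 rose and 1 fell with shRNA-1 and 11 rose and 0 fell with shRNA-2, where again 0 were lower by DESeq2 or at an unadjusted p under 0.05. Their medians were -0.12 and 1.81, against 0.023 and 0.0042 over all genes tested. Of all genes tested, 17.4% rose and 17.3% fell with shRNA-1, and 24.4% rose and 24.2% fell with shRNA-2. The 11 include Col1a1 and Cx3cl1, which passed the filter on low counts only through their shRNA-2 libraries. Thbs1, the matrix protein thrombospondin, went from 86.8 ± 5.88 CPM to 392 ± 124 and 815 ± 269, a rise of 2.17 ± 0.26 and 3.23 ± 0.27 (edgeR adjusted p = 0.000215 and 4.51e-06). Fn1, fibronectin, rose by 1.61 ± 0.40 and 2.33 ± 0.39 (edgeR adjusted p = 0.00985 and 0.000488), and its shRNA-1 call was lost without shRNA-1 replicate 2, at 1.16 (0.0633). With the covariate 2 genes of this list rose with shRNA-1, and with a filter of 5 CPM in 3 libraries 7 rose with shRNA-2.

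**Figure D4:**
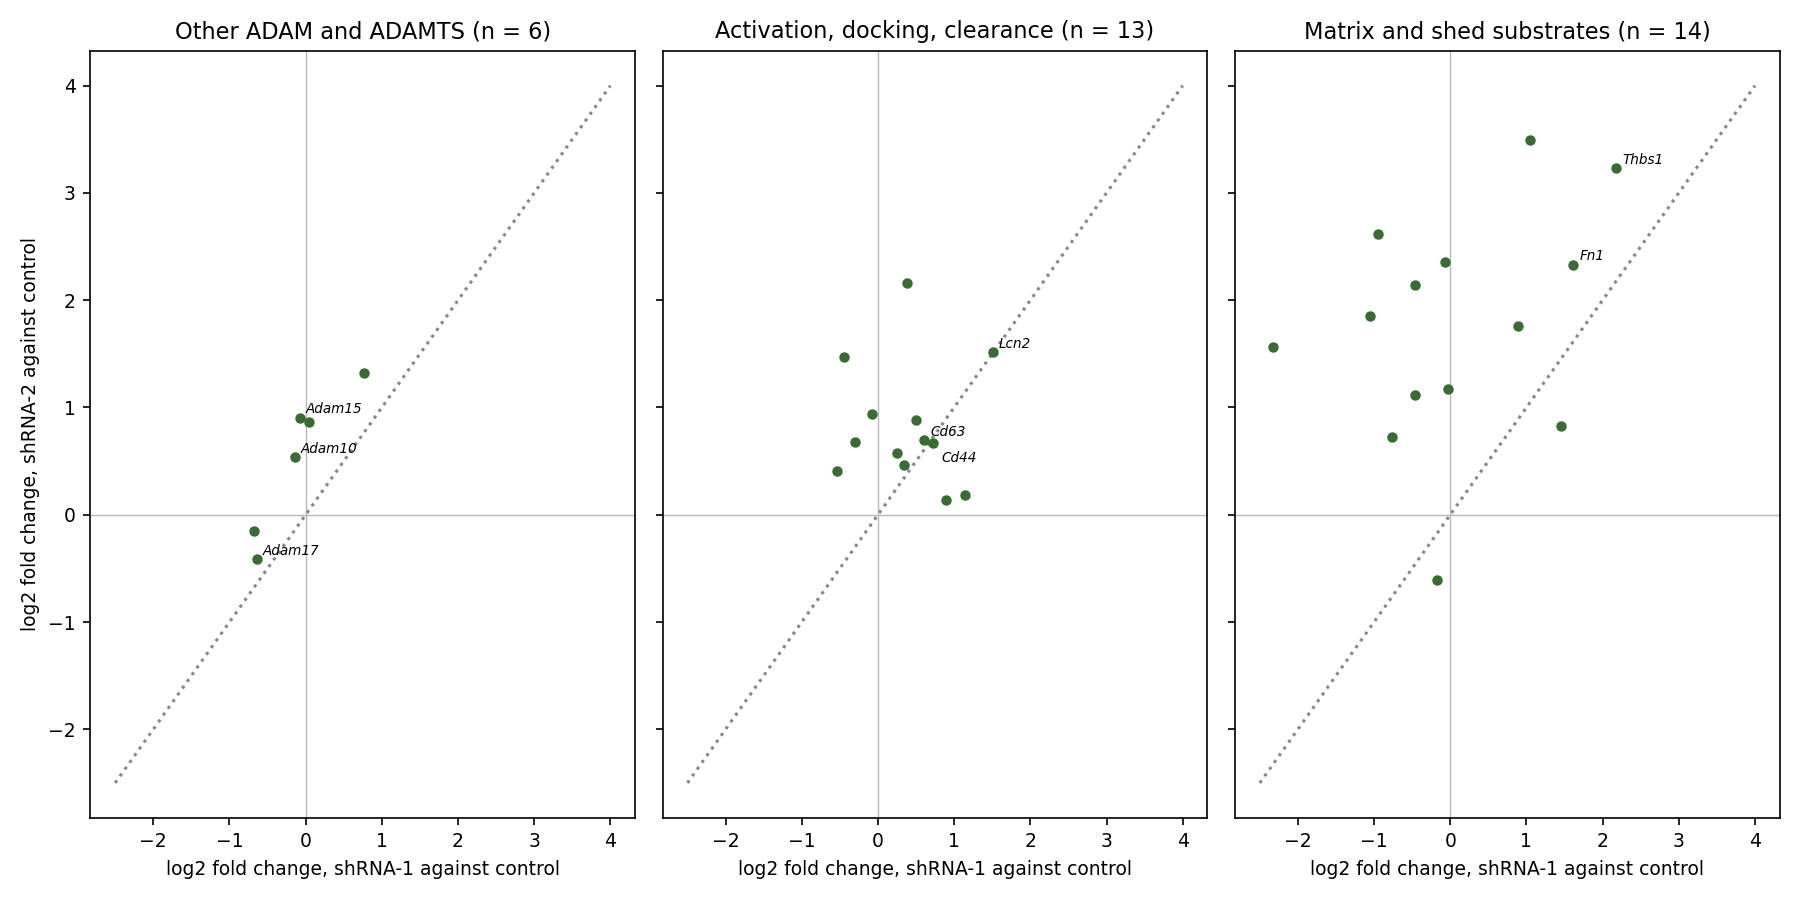
Log2 fold change with shRNA-1 (x axis) against that with shRNA-2 (y axis), both relative to the same controls, for the genes of 3 lists that passed the filter, with the genes described by name labelled; the dotted line marks equal values. Of the 33 points 28 lie above the line, such as Thbs1 at 2.17 and 3.23, with Lcn2 at 1.51 on both axes. The 28 include Col1a1 and Cx3cl1, which passed the filter on low counts only through their shRNA-2 libraries. The place of these genes above the line is therefore no support. Of all 12663 genes tested 49.7% lie above the line.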

How the data were processed

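The authors deposited 1 table of raw read counts per library, with 39179 rows for 38926 gene symbols. The submitters' processing notes name STAR 2.3.0e, HTSeq 0.6.0 and the build mm10. Their gene annotation, strand setting and handling of multi-mapping reads were not given in the sources at hand, so reads of overlapping genes cannot be told apart. Per the labels' protocols, cDNA was primed with oligo-dT and its other strand with random decamers.

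Rows of 1 symbol were summed, filterByExpr by group kept 12663 genes, and library sizes were scaled with TMM factors. All 9 libraries entered 1 fit (edgeR 4.0.16, R 4.3.3, quasi-likelihood test, Benjamini-Hochberg over all genes tested). Standard errors are the log2 fold change over the square root of the F statistic, and 95% intervals use the t distribution of the fit. The common biological coefficient of variation was 0.165. The pipeline was tested on simulated data. Total counts per library are given as the depth, and counting intervals would cover counting error only.

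The genes, the lists and the rules were chosen with earlier results of these data known. All 9 members and Syncrip were named whatever their values. Of each list other than the cell markers, up to 3 genes were named that were called with both hairpins, by size of change, then those of highest level, and every gene of a list of 3. The 2 most similar genes were named per member that passed the filter, on log2(CPM + 0.5); predicted genes (Gm, LOC, BC, AK or Rik names) were passed over. Of the genes this rule picks, 2 are not reported here. Other genes named were chosen after their values were seen. Alternatives were DESeq2 size factors, total counts, 2 other filters, DESeq2 1.42.0, a block for the replicate number, fits of 2 groups, a covariate for the share of ribosomal RNA (Gm26924, taken for ribosomal RNA from background knowledge, mt-Rnr1 and mt-Rnr2) and leaving out each library.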

Additional observations from a re-analysis of the deposited data

How the results depend on the processing

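The count of the 8 filtered genes that were called was 5 for shRNA-1, 8 for shRNA-2 and 7 between the hairpins. With total counts in place of TMM it was 5 for shRNA-2, and the 5 for shRNA-1 became 4 rises and 1 fall, and under the ribosomal RNA covariate it was 2 for shRNA-1; the cause was not tested. Leaving out each library in turn gave 4 to 6, 6 to 8 and 6 to 7. Of 405 values of these genes under all alternatives, 380 kept their direction and side of the threshold, 21 lost a call, 4 gained one and none changed direction. Mmp14 has no value under the filter of 5 CPM in 3 libraries, which its level misses. The Mmp8 difference between the hairpins was also lost in a fit of those 2 groups (edgeR adjusted p = 0.0574).

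The labels number the libraries 1 to 3 in each group, without saying what a number shares. Same-numbered libraries correlated in their deviations from the group means between -0.14 and 0.38, and 7 of 9 libraries correlated best with their own number, a hint of pairing. The numbers were not taken as pairs over the 3 groups, because replicate 2 of shRNA-1 correlated at -0.14 and -0.049 with its namesakes, and a value over 0.1 was asked of every pair. Between shRNA-2 and control all 3 pairs passed that limit (0.12 to 0.21). With the replicate block 6, 8 and 7 of the 8 genes were called. The calls it gained among the named genes were the fall of Timp2 with shRNA-1 (-0.54, edgeR adjusted p = 0.00761) and that of Adam17 with shRNA-2, and it ended none.

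Leaving out libraries, the shRNA-1 value of Adam15 ran from -0.18 to 0.0063 and that of Mmp13 from -0.90 to 0.12, crossing 0. Over all genes, calls with shRNA-1 numbered 4389, against 1358 with the covariate, 2916 without control replicate 3 and 2925 without shRNA-1 replicate 2. Rises made up 60.9% of the shRNA-1 calls under the covariate. Depth limits genes of few counts: Timp1, with 7 in all libraries, gave no fold.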

Other observations

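Some partners and substrates of these proteases, chosen after their values were seen, stood apart between the hairpins. Plau, the urokinase that generates plasmin, was at 6.46 ± 2.55, 4.79 ± 0.643 and 18.1 ± 2.07 CPM (control, shRNA-1, shRNA-2; SD, n = 3), and it rose with shRNA-2 (edgeR adjusted p = 0.000591). With shRNA-1 Plau stood at -0.45 ± 0.28 (edgeR adjusted p = 0.232, 0.0201 without control replicate 2). Lrp1, an endocytic receptor that clears protease complexes, was at 3.54 ± 0.801, 4.54 ± 1.83 and 15.98 ± 2.61 CPM, and rose with shRNA-2 (edgeR adjusted p = 6.41e-05). Selplg, the ligand of selectins, was at 144 ± 4.96, 141 ± 5.37 and 323 ± 31.2 CPM, and rose with shRNA-2 (edgeR adjusted p = 1.18e-05).

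Col4a1, a collagen of basement membranes, went in opposite directions, from 1.70 ± 0.685 CPM to 0.324 ± 0.0908 (shRNA-1) and 5.02 ± 1.03 (shRNA-2). On the log2 scale it fell by 2.32 ± 0.46 and rose by 1.57 ± 0.31 (edgeR adjusted p = 0.00297 and 0.00151), with 11 counts in all in the shRNA-1 libraries. The fall was not called with the ribosomal RNA covariate (edgeR adjusted p = 0.0586). Cx3cl1, a membrane chemokine that ADAM proteases shed, went from 0.415 ± 0.0236 to 2.603 ± 0.0820 CPM with shRNA-2, a rise (edgeR adjusted p = 2.74e-05), and was at 0.216 ± 0.0616 CPM with shRNA-1 (0.181). It had 8, 6 and 10 counts in the controls and 2, 2 and 3 with shRNA-1. Cx3cl1 passed the filter on low counts only through its shRNA-2 libraries, so its p-value for shRNA-2 is no support for the rise.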
